A study of Mus musculus with 72 samples.

Results

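The RNA that was already present before labeling, and that was still there after 120 min of 4sU, was compared between the nucleus and the cytosol of mouse embryonic stem cells. A gene was taken when at least 2000 T positions had been sequenced on its exons in each of the 8 libraries of nucleus and cytosol at 120 min. This gave 9617 of the 26287 genes that had a T count in any of these libraries, and 9053 of the 9617 code for proteins. The limit on T counts set which genes could be measured and used no share of new RNA. Genes just inside the limit (2000 to 2500 T in their lowest library, 431 genes) had a median new share of 47.7% in the nucleus and of 40.4% in the cytosol, and the 433 genes just outside it (1600 to 2000 T) had 48.5% and 38.7%.

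All cells were E14TG2a, an embryonic stem cell line, grown in 2i + LIF medium, which holds the cells in a pluripotent state with inhibitors of Mek and Gsk3 and a cytokine. 4sU (4-thiouridine) is a uridine analog that is built into RNA made during labeling and, once alkylated, appears as a C where the genome has a T. Both groups received 4sU for 120 min, and the labels give 100 µM for all 8 libraries. Replicates 3 to 6 were used, 4 cultures each split into its fractions, and the replicates were passaged independently. The cytosol is what digitonin released from the cells in the presence of cycloheximide, and the nucleus is the pellet that remained after NP-40 had taken off the membranes, purified over a sucrose cushion. The labels describe this pellet as holding insoluble material as well as nuclei. Libraries were poly(A)-selected and stranded.

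The new share of a gene was taken as its T-to-C (T2C) counts on exons over its T counts, divided by the conversion rate of the library, and the rest of 100% is old RNA, left from before labeling. In a cell at steady state old RNA declines as molecules are degraded or leave a compartment, so that a short-lived transcript is almost fully replaced within a given time and a long-lived one stays mostly old. An mRNA in the cytosol has first passed through the nucleus, where it is spliced, polyadenylated and exported, and new RNA therefore reaches the cytosol later than it appears in the nucleus. Old RNA also keeps reaching the cytosol from the nucleus, so that an old cytosolic pool does not by itself mean slow decay there. The study proposes that for most mRNAs the slowest step is retention in the nucleus. Transcripts of regulators of transcription and signaling are known for fast turnover, and transcripts of ribosomal proteins and metabolic enzymes for slow turnover.

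Between 14384152 and 22811132 reads were counted on genes in the nuclear libraries and between 19572053 and 27632874 in the cytosolic ones. T positions in introns made up 15.1% to 29.5% of all T positions in the nucleus and 3.78% to 7.81% in the cytosol. The summed level of 4 nuclear noncoding RNAs (Malat1, Neat1, Meg3 and Kcnq1ot1) was 1628, 1165, 865 and 680 CPM (read counts scaled to library size) in the nucleus of replicates 3, 4, 5 and 6, and 87.7, 92.6, 277 and 344 CPM in the cytosol. The cytosolic libraries of replicates 5 and 6 thus held more of these nuclear RNAs than those of replicates 3 and 4, and the nuclear ones less. The 13 mitochondrial mRNAs together reached 3992 to 11687 CPM in the nucleus against 302 to 1171 CPM in the cytosol. All 7 pluripotency markers were expressed (summed level 3496 to 6286 CPM over the 8 libraries), and both trophoblast markers stayed below 1 CPM in every library. Markers of other lineages were low but not all absent. Their summed level was 16.8 to 25.4 CPM for 3 neural and 5.96 to 13.4 CPM for 3 mesoderm markers. It was 2.38 to 5.46 CPM for 4 primitive endoderm and 0.187 to 5.58 CPM for 3 fibroblast markers.

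The conversion rate was 10.4%, 12.2%, 3.81% and 3.96% in the nucleus of replicates 3, 4, 5 and 6, and 8.83%, 11.4%, 3.26% and 3.36% in the cytosol. Replicates 3 and 4 therefore form a pair apart from replicates 5 and 6. By the study's methods 120 min of labeling was done both with 500 µM and with 100 µM 4sU, and the study set aside the 500 µM samples labeled for over 60 min because gene expression had changed. The labels name no such library, and they give 100 µM to more replicates of 120 min than the methods do. The dose of replicates 3 and 4 is therefore uncertain, and they may be those libraries. Dose and pair cannot be told apart, and the main counts are also given by pair.

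The median gene kept more old RNA in the cytosol than in the nucleus in each of the 4 pairs. It was 56.5%, 64.5%, 56.2% and 59.7% old in the nucleus of replicates 3 to 6 and 77.7%, 78.0%, 64.3% and 64.7% old in the cytosol. Expressed as new RNA, the medians were 43.5%, 35.5%, 43.8% and 40.3% in the nucleus, with a mean of 40.8% ± 3.86 (SD, n = 4), and 22.3%, 22.0%, 35.7% and 35.3% in the cytosol, with a mean of 28.8% ± 7.70 (SD, n = 4). Nuclear replicate 4 lay below cytosolic replicate 5, so that the groups overlapped. Exon counts of the nucleus also hold RNA that is not yet spliced, so that the nuclear share is not that of mature mRNA alone. Introns held a median of 22.5% of the T positions per gene in the nucleus and 5.28% in the cytosol, and nuclear introns were 95.5% new. The part of unspliced RNA in the difference was not tested.

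The log2 ratio of the nuclear to the cytosolic median was 0.53 ± 0.36 (SD, n = 4), a ratio of 1.45, with p = 0.125 in an exact two-sided permutation test over pairs, which is the smallest p that 4 pairs allow. By replicate the ratio was 1.95, 1.61, 1.23 and 1.14. The log2 ratio was 0.83 in replicates 3 and 4 and 0.24 in replicates 5 and 6. The pairs differed mainly in the cytosol, where the medians averaged 22.2% and 35.5%, against 39.5% and 42.0% in the nucleus. The summed nuclear RNAs, the intron share and the conversion rate move with the same pairs, and their part in this difference was not tested.

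**Figure D1:**
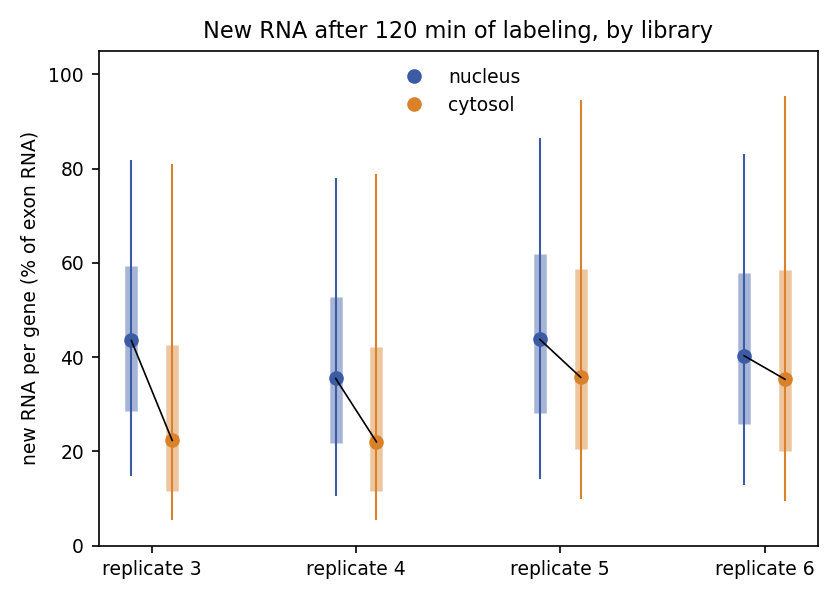
New RNA per gene (in % of exon RNA) for the 9617 genes in each nuclear and cytosolic library of replicates 3 to 6 after 120 min. Points are medians, joined within a replicate, boxes run from percentile 25 to 75 and lines from percentile 5 to 95 over genes. The 4 nuclear medians sit between 35.5% and 43.8%, and the cytosolic medians split into 22.0% and 22.3% for replicates 4 and 3 and 35.3% and 35.7% for replicates 6 and 5.

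Gene by gene, 3530 of the 9617 genes (36.7%) were newer in the nucleus and 205 (2.13%) were newer in the cytosol at an adjusted p under 0.05 in edgeR's quasi-likelihood test with the replicate as a block, and 5882 were not called. Over all 12325 genes fitted the shares were 30.7% and 1.99%. The new share was higher in the nucleus in all 4 pairs for 5237 genes and lower in all 4 pairs for 769. In 2929 genes every nuclear library was above every cytosolic one, and in 263 genes the reverse held. The median fitted log2 ratio of the new shares, nucleus over cytosol, was 0.42 over the 9617 genes and 0.39 over all genes fitted.

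Each pair fitted alone also gave calls, 5358 newer in the nucleus and 147 newer in the cytosol in replicates 3 and 4, and 3450 and 878 in replicates 5 and 6. Both pairs called 3295 genes newer in the nucleus and 143 newer in the cytosol, and 29 genes were called in opposite directions. Each of these fits had 2 replicates, which measure the spread between cultures poorly. The agreement of their calls is therefore a description. The ratio itself differed between the pairs in 2556 genes (26.6%, against 21.4% of all genes fitted) by edgeR's test of the interaction, with 2552 lower in replicates 5 and 6 and 4 higher (Iqgap1, Ranbp2, Rtn3 and Zc3h13). Without replicate 6 this last count fell to 45, and without replicate 5 to 327, while it was 3652 without replicate 3 and 5815 without replicate 4.

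The number of calls also changed when replicate 4 was left out. Without it edgeR made 0 calls at an adjusted p under 0.05, with 3119 genes newer in the nucleus and 197 newer in the cytosol at an unadjusted p under 0.05, and all 3530 and all 205 genes kept their direction. Without replicate 3 there were 2842 genes newer in the nucleus and 259 newer in the cytosol. Genes newer in the cytosol numbered 101 without replicate 5 and 111 without replicate 6. When each library was centred on an equal median share, which lowers the log2 ratio of genes by the difference of the medians (0.53) and so moves genes toward the cytosol, 1907 genes were newer in the nucleus and 3301 newer in the cytosol, and the median log2 ratio was -0.12. Of the 3530 genes newer in the nucleus, 3315 kept their direction under this centring, while genes newer in the cytosol could not lose theirs.

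**Figure D2:**
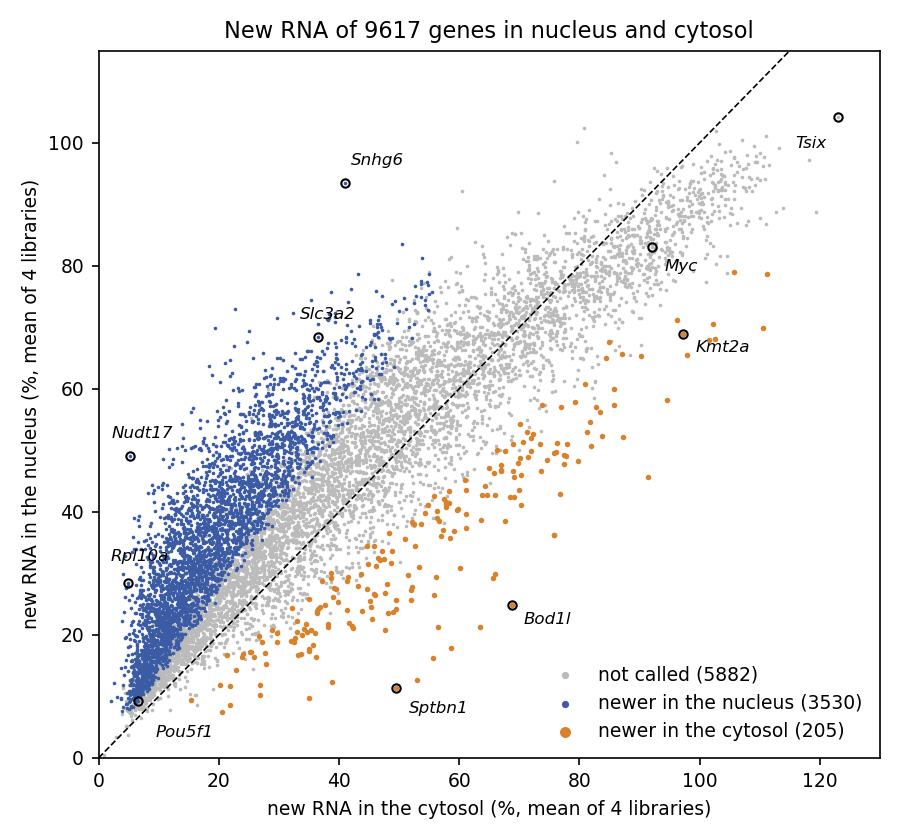
Mean new RNA of each of the 9617 genes in the cytosol (horizontal axis, %) and in the nucleus (vertical axis, %), each the mean of 4 libraries, with the 3530 genes newer in the nucleus and the 205 newer in the cytosol marked. Most genes lie above the diagonal at low cytosolic shares. They come close to it where both shares are high and a ratio has little room.

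Some genes were almost fully replaced, here taken as at most 20% old on average over the 4 libraries, and others stayed mostly old, taken as at least 75% old. In the nucleus 556 genes (5.78%) were replaced and 2150 (22.4%) were mostly old. In the cytosol 725 (7.54%) were replaced and 4130 (42.9%) were mostly old. Replaced in both fractions were 484 genes and mostly old in both 2039, whereas no gene was replaced in one fraction and mostly old in the other. A further 2091 genes were mostly old in the cytosol alone and 111 in the nucleus alone. Across the 9617 genes the mean shares of the 2 fractions had a Spearman correlation of 0.89 (0.8852), a description of genes measured in the same cultures.

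The counts of these classes moved with the pair. In the nucleus 459 genes were replaced and 2333 mostly old in replicates 3 and 4, against 728 and 2087 in replicates 5 and 6. In the cytosol the counts were 466 and 5284 against 1080 and 3172. With 1 conversion rate per replicate 880 genes were replaced in the nucleus and 514 in the cytosol. Which fraction had more replaced genes thus depended on the conversion rates. The limits held in every single library for 284 replaced and 1328 mostly old genes in the nucleus, and for 366 and 2907 in the cytosol. New shares above 100% can arise since the conversion rate is an estimate for the whole library, and 17 to 52 genes exceeded 100% in a nuclear library and 42 to 336 in a cytosolic one.

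The genes with the highest new share in either fraction are described next. Tsix, the antisense RNA of the Xist locus (chrX), had new shares of 110%, 104%, 107% and 95.8% in the nucleus of replicates 3 to 6 and 129%, 125%, 113% and 124% in the cytosol. Its cytosolic values were all above the nuclear ones, but the difference was not called (log2 ratio -0.24 ± 0.13 (SE), edgeR adjusted p = 0.177), and Tsix overlaps an annotated gene and lies antisense to Xist, so that its reads are less certain. Med26, a Mediator subunit that links to the elongation machinery, had 93.0%, 98.9%, 108% and 105% in the nucleus and 104%, 101%, 117% and 122% in the cytosol. The libraries of Med26 overlapped.

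Further genes with the highest nuclear shares were Spry4, a feedback inhibitor of growth factor signaling (95.2% to 106% over the nuclear libraries), Rsl1, a zinc finger repressor (90.8% to 112%), Zkscan1 (94.7% to 103%), AI506816 (97.5% to 105%) and Tagap and Tagap1 (90.3% to 111% and 94.7% to 104%). Tagap and Tagap1 are near-identical copies, so that reads could be split between them. In the cytosol the highest shares also included Trib1, a pseudokinase that steers protein degradation (94.8% to 126%), and the zinc finger genes Zfp708, Zfp51, Zfp273 and Zfp955b. Zfp955b was the only one of these named genes that was called. Its share was 76.2%, 76.2%, 93.8% and 68.3% in the nucleus and 102%, 98.0%, 118% and 127% in the cytosol, with no overlap (log2 ratio -0.50 ± 0.15 (SE), edgeR adjusted p = 0.0426).

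At the other end, the oldest transcripts included mitochondrial enzymes and subunits encoded in the nuclear genome. Cox6b1, a subunit of cytochrome c oxidase, was new to 5.51%, 6.32%, 8.09% and 7.83% in the nucleus and 4.83%, 3.86%, 7.72% and 8.08% in the cytosol, and Ndufa1, a complex I subunit, to 4.86% to 8.70% and 5.79% to 8.73%. In both genes the fractions overlapped. Gmds, which makes GDP-fucose, was new to 3.63%, 1.11%, 4.86% and 3.86% in the nucleus and 2.15%, 2.17%, 4.78% and 2.33% in the cytosol. Chchd6, Ddx25, Mnd1 and Pcca were between 1.73% and 9.70% in every nuclear library and between 2.04% and 8.93% in every cytosolic one, without a call. No background was taken off these low shares.

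The oldest cytosolic transcripts included genes that were newer in the nucleus. Ddx4, the germ cell helicase Vasa, was new to 13.4%, 4.93%, 18.9% and 11.6% in the nucleus and 2.01%, 2.33%, 3.69% and 2.40% in the cytosol (log2 ratio 2.07 ± 0.38 (SE), edgeR adjusted p = 0.012). Zcwpw1, a reader of histone methylation in meiosis, had 13.7% to 16.2% against 2.02% to 6.61% (log2 ratio 2.17 ± 0.36 (SE), edgeR adjusted p = 0.0106). Neither overlapped between fractions. Ndufa3, Vill and Nubpl were called as well, with log2 ratios of 1.44, 1.86 and 1.44, and Nubpl, an assembly factor of complex I, turned to -0.55 when only its most covered exon was used. AY036118 (0.138% to 1.69% over the 8 libraries) and Lars2 (3.65% to 12.1% in the nucleus, 1.20% to 3.06% in the cytosol) hold stretches that resemble ribosomal RNA, so that their values are uncertain.

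Short motifs were counted in the 3′ UTRs of these classes. The AU-rich nonamer TTATTTATT is the core of elements that Zfp36 proteins bind, and TGTANATA is the site of Pumilio proteins, and both groups of proteins are known to speed decay. Sites were searched on the sense strand of the 3′ UTR of 1 GENCODE vM21 transcript per gene (GRCm38). Sites of genes replaced in both fractions are shown as examples, with the motif in capitals and 10 bases on each side:
Mdm2, ubiquitin ligase of p53, AU-rich nonamer, chr10:117688915-117688943, minus strand: ggcattgatgTTATTTATTtgcaaataaa
Tagap, AU-rich nonamer, chr17:7934788-7934816, plus strand: tcagtagagtTTATTTATTagtcacaata
Zfp11, zinc finger gene, AU-rich nonamer, chr5:129655961-129655989, minus strand: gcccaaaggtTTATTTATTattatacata
Trib1, Pumilio site, chr15:59656177-59656204, plus strand: gctttatattTGTATATAcattttacct
Klf2, Pumilio site, chr8:72321228-72321255, plus strand: tttataatatTGTATATAagactatgac
Cdkn1a, Pumilio site, chr17:29099504-29099531, plus strand: aaacgtctccTGTATATAcgctgcctgc

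The nonamer was found in 19.3% of the 3′ UTRs of the 484 genes replaced in both fractions, in 2.84% of the 2039 mostly old in both and in 7.45% of all 9011 genes with a 3′ UTR at hand. The Pumilio site was in 34.4%, 12.7% and 26.3%. The median 3′ UTR was 1.47 kb, 0.473 kb and 1.06 kb long in these groups, and per kb of 3′ UTR there were 0.146, 0.0387 and 0.0645 nonamers and 0.282, 0.177 and 0.249 Pumilio sites. The genes replaced in both fractions also had fewer exons (median 4, against 8 for genes mostly old in both and 9 for all genes). These are counts of letters and say nothing of binding.

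Within the 9617 genes the difference between fractions varied between groups split by gene structure, but in part of these splits the new share itself varied too. With the genes split into 4 groups of equal size by 3′ UTR length, the median log2 ratio of new shares was 0.69 in the shortest group (up to 434 bases) and 0.18 in the longest (2109 bases and more), and the share of genes newer in the nucleus was 52.1% and 22.8%. The median new share of the shortest group was 29.55% in the nucleus and 16.8% in the cytosol, against 47.8% and 41.4% in the longest. Split in the same way by exon number, the median log2 ratio was 0.20 in the group with the fewest exons and 0.54 in that with the most. The median cytosolic share of these exon groups was 36.7% and 27.5%. Split by the share of nuclear T positions that lie in introns, the median log2 ratio was 0.23 in the lowest group and 0.58 in the highest. The median new share of these intron groups was 28.0% and 29.2% in the cytosol and 33.9% and 44.6% in the nucleus. In the splits by 3′ UTR length and exon number, the group with the smaller ratio had the higher cytosolic share. High shares leave a ratio little room, and whether gene structure matters apart from the new share was not tested.

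In the gene groups that follow, counts of calls stand beside 36.7% newer in the nucleus and 2.13% newer in the cytosol over all 9617 genes. Of 57 immediate early and feedback genes listed, such as Fos, Dusp and Spry genes, 41 were measured. Their median was 14.3% old in the nucleus and 5.21% old in the cytosol, 29 were replaced in the nucleus and 33 in the cytosol, and none was called in either direction. Spred1, an inhibitor of Ras signaling, and Jund, a subunit of the AP-1 factor, were the oldest in the nucleus (29.6% to 59.1% and 42.6% to 47.3% new), and Spry1, like Spry4 a feedback inhibitor, was among the newest (82.7% to 104%). The list had a median log2 ratio of -0.15 (-0.10 and -0.20 in the pairs), which turned to 0.04 with 1 conversion rate per replicate.

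Zinc finger genes named Zfp, many of them repressors of transcription, had a median of 75.8% new in the nucleus and 81.4% in the cytosol over 268 genes, with 100 and 140 replaced. Of these, 17 were newer in the nucleus, 14 newer in the cytosol and 237 not called. High shares in both fractions limit the ratio in many of these genes too. The median log2 ratio was -0.08 and turned to 0.12 with 1 conversion rate. Zfp97 had 76.0%, 71.5%, 70.5% and 64.3% in the nucleus and 94.0%, 96.0%, 110% and 108% in the cytosol, without overlap (log2 ratio -0.53 ± 0.12 (SE), edgeR adjusted p = 0.0179). Zfp185, by contrast, was 4.70% to 11.5% new in the nucleus and 4.62% to 27.9% in the cytosol. Zfp600, Zfp981, Zfp980, Zfp988, Zfp990 and Zfp987 of the chr4 cluster were called newer in the cytosol, but are close copies and may share reads.

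The 29 pluripotency regulators spanned the whole range, with medians of 57.5% new in the nucleus and 56.1% in the cytosol, 5 genes newer in the nucleus (Pou5f1, Tfcp2l1, Tcf3, Tcf7l1 and Dppa4) and 1 in the cytosol (Rex2). Fgf4, a growth factor that drives exit from pluripotency, had 91.3%, 91.0%, 98.3% and 94.2% in the nucleus and 103%, 94.3%, 112% and 113% in the cytosol, and was not called. Pou5f1, the core pluripotency factor Oct4 (chr17:35506018-35510772), had 11.7%, 8.27%, 9.01% and 8.25% in the nucleus and 6.48%, 5.58%, 7.12% and 7.004% in the cytosol, without overlap (log2 ratio 0.50 ± 0.13 (SE), edgeR adjusted p = 0.0271). The ratio of Pou5f1 was -0.04 with equal library medians. Rex2 was new to 44.9% to 65.9% in the nucleus and 62.6% to 94.1% in the cytosol, but lies on chr4 with the Zfp copies named above and may share reads with them.

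Of 21 p53 targets 6 were replaced in the nucleus and 7 in the cytosol, with 2 newer in the nucleus (Bax and Rrm2b). Cdkn1a, the inhibitor of cyclin-dependent kinases, was new to 96.9% to 99.7% in the nucleus and 102% to 118% in the cytosol, and Mdm2 to 94.1% to 97.6% and 91.9% to 106%. Neither was called. Bax, a pore-forming inducer of apoptosis, was mostly old in the cytosol (29.4% to 34.5% new in the nucleus, 11.5% to 17.8% in the cytosol; log2 ratio 1.18 ± 0.16 (SE), edgeR adjusted p = 0.00989), and overlaps a predicted gene.

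Myc, which the study uses as an example, had 66.4%, 83.9%, 88.5% and 93.8% in the nucleus and 74.0%, 90.3%, 93.9% and 110% in the cytosol. The cytosolic value was the higher one in each pair, the fractions overlapped, and the gene was not called (log2 ratio -0.14 ± 0.16 (SE), edgeR adjusted p = 0.51). Nf1, Slf1 and Tfrc were not called either, with log2 ratios of 0.37, 0.35 and -0.18.

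The groups known for slow turnover had medians that were largely old in both fractions, and more so in the cytosol. Of 82 cytosolic ribosomal protein genes, 80 were mostly old in the nucleus and 82 in the cytosol, with medians of 88.3% and 93.2% old. Of the 82, 78 were newer in the nucleus, against 36.7% of all 9617 genes, and none in the cytosol, and their median log2 ratio of 0.81 was 1.04 in replicates 3 and 4 and 0.54 in replicates 5 and 6. Rplp1, of the ribosomal stalk, had 9.28%, 6.70%, 9.21% and 8.35% in the nucleus and 5.26%, 4.48%, 6.22% and 5.75% in the cytosol, without overlap (log2 ratio 0.63 ± 0.11 (SE), edgeR adjusted p = 0.0116). Rpl10a and Rps9 had the highest nuclear shares of the list. Rpl10a had 44.3%, 31.0%, 19.1% and 19.7% in the nucleus and 3.20%, 3.75%, 6.62% and 6.09% in the cytosol (log2 ratio 2.51 ± 0.39 (SE), edgeR adjusted p = 0.0103). Rps9 had 40.2%, 23.8%, 21.8% and 20.0% against 5.76%, 5.51%, 9.03% and 8.30% (log2 ratio 1.86 ± 0.27 (SE), edgeR adjusted p = 0.00989). Introns held 46.6% of the nuclear T positions of Rpl10a and 6.83% of those of Rps9, and reads of ribosomal protein genes may be shared with their pseudogenes.

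The groups of protein synthesis and energy metabolism followed the same order in their medians. Mostly old in the nucleus were 34 of 78 mitochondrial ribosomal proteins and 32 of 63 translation factors. The translation factors Eif4a2 and Eif2ak3 had mean new shares of 86.0% and 75.2% in the nucleus and 81.0% and 92.1% in the cytosol. Newer in the nucleus were 36 of 78 mitochondrial ribosomal proteins (medians 27.2% and 18.5% new), 45 of 88 respiratory chain subunits (12.6% and 8.08%), 9 of 16 glycolytic enzymes (15.6% and 9.76%), 35 of 63 translation factors (24.7% and 17.0%), 21 of 35 proteasome subunits (18.1% and 10.7%) and 6 of 8 subunits of the chaperonin TRiC (17.3% and 11.5%). These counts stand against 36.7% of all 9617 genes, which the mitochondrial ribosomal proteins come near to, and none of these groups had a gene newer in the cytosol. Their median log2 ratios were 0.55 to 0.70, and 0.26 to 0.31 in replicates 5 and 6 alone. With equal library medians they were 0.02 to 0.17. Cox6b2, a testis form of a cytochrome c oxidase subunit, was an exception in level, with 67.1%, 59.5%, 40.5% and 34.1% in the nucleus and 9.34%, 9.79%, 10.3% and 17.6% in the cytosol (log2 ratio 2.11 ± 0.32 (SE), edgeR adjusted p = 0.0101).

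The 8 mitochondrially encoded mRNAs that passed the limit, of 13, are made and used inside the organelle. Their medians were 42.0% new in the nucleus and 46.8% in the cytosol, with none called and a median log2 ratio of -0.08 in both pairs, although their level was higher in the nucleus by a median log2 of 3.23. mt-Co1 had 20.1%, 20.5%, 20.4% and 19.3% in the nucleus and 21.8%, 22.3%, 22.3% and 22.8% in the cytosol. The cytosolic values of mt-Co1 were all above the nuclear ones by little, with no split between the pairs, and the gene was not called (log2 ratio -0.15 ± 0.09 (SE), edgeR adjusted p = 0.209).

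**Figure D3:**
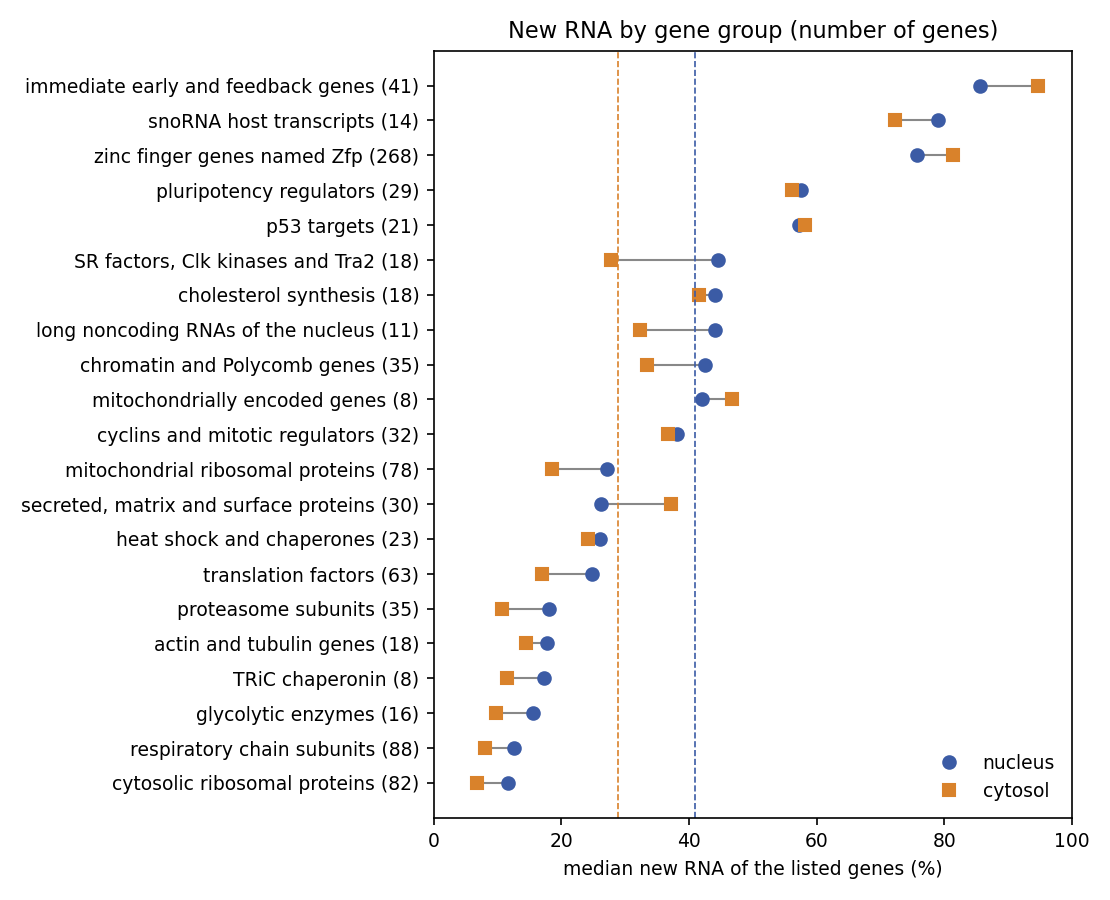
Median new RNA (%) of the measured genes of each gene group in the nucleus and in the cytosol, with the number of genes in brackets and the medians of all 9617 genes as dashed lines. Immediate early genes and Zfp genes sit above 75% in both fractions, ribosomal protein and respiratory chain genes below 13%, and the cytosolic point is to the right of the nuclear one for the secreted, matrix and surface proteins (37.2% against 26.1%).

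Of 18 SR splicing factors, Clk kinases and related genes, which regulate splicing, 12 were newer in the nucleus, against 36.7% of all 9617 genes, and none in the cytosol, with medians of 44.5% and 27.8% new. Srsf3 had 41.4%, 21.5%, 36.7% and 35.1% in the nucleus and 11.5%, 10.5%, 23.5% and 24.9% in the cytosol, where nuclear replicate 4 lay below cytosolic replicates 5 and 6 (log2 ratio 1.00 ± 0.22 (SE), edgeR adjusted p = 0.0163). Clk1, a kinase of SR proteins, was replaced in both fractions (77.3% to 95.7% and 68.3% to 99.9%) and not called.

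Of 14 snoRNA host transcripts, 6 were newer in the nucleus and 7 were replaced there, and of 11 long noncoding RNAs 3 were newer in the nucleus (Rian, Mirg and Pvt1) and 1 in the cytosol (Tug1). Snhg6 (chr1:9941959-9944118), whose introns give rise to a snoRNA, had 98.4%, 97.9%, 89.5% and 88.0% in the nucleus and 37.9%, 30.0%, 52.0% and 44.4% in the cytosol, far apart in every pair (log2 ratio 1.22 ± 0.18 (SE), edgeR adjusted p = 0.00989). Neat1, the scaffold of paraspeckles, was new to 83.1% to 88.2% in the nucleus and 91.9% to 100% in the cytosol and was not called, and Tug1 to 36.1% to 56.9% and 57.2% to 94.8% (log2 ratio -0.65 ± 0.11 (SE), edgeR adjusted p = 0.0111). Both Neat1 and Tug1 overlap small predicted genes.

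In the remaining groups calls went both ways or were few. Of 35 chromatin and Polycomb genes, 12 were newer in the nucleus, near the 36.7% of all 9617 genes, and 4 in the cytosol (2.13% of all genes), namely Kmt2a and Kmt2b, both histone H3K4 methyltransferases, Tet1, which oxidizes 5-methylcytosine, and Cbx5, a heterochromatin protein. Of 32 cyclins and mitotic regulators 4 were newer in the nucleus (Ccnb2, Ccnh, Cdc25b and Cdc25c) and 2 in the cytosol (Cenpf and Mki67). Of 18 cholesterol synthesis genes 3 were newer in the nucleus (Mvk, Fdps and Lss) and 2 in the cytosol, among them Srebf2, the regulator of the pathway. Of 18 actin and tubulin genes 4 were newer in the nucleus (Pfn1, Tmsb4x, Tmsb10 and Capzb). Some of these genes, and those of the chaperones that follow, were named after their values were seen. None of 67 listed replication-dependent histone genes reached the T limit in these poly(A)-selected libraries.

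Of 23 heat shock and chaperone genes, 2 were newer in the nucleus (Hspe1 and Ahsa1) and 5 in the cytosol. The 5 were Hspa5, Hsp90b1, Canx, Pdia3 and Pdia4, all of which fold proteins in the endoplasmic reticulum, with log2 ratios of -0.47, -0.65, -0.59, -0.98 and -0.80. Pdia3, a disulfide isomerase, had 18.9%, 18.3%, 17.4% and 16.1% in the nucleus and 40.1%, 34.1%, 31.7% and 33.8% in the cytosol, without overlap (edgeR adjusted p = 0.00989). The log2 level of these 5 genes was 2.52 to 3.59 higher in the nucleus.

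The largest ratios toward the nucleus belonged to genes that were mostly old in the cytosol. Ratios of this size require a low cytosolic share, because a nuclear share can hardly exceed full replacement. Nudt17, a Nudix hydrolase (chr3:96706067-96708562), had 56.1%, 54.2%, 46.3% and 39.6% in the nucleus and 2.44%, 5.54%, 8.25% and 4.54% in the cytosol. All nuclear values were above all cytosolic ones, with a 9.95-fold ratio (log2 ratio 3.31 ± 0.35 (SE), edgeR adjusted p = 0.00849). Fcho1, which starts clathrin-coated pits, had 32.8%, 33.6%, 34.8% and 29.9% against 4.47%, 2.41%, 4.51% and 6.02%, an 8.08-fold ratio.

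Hdac10, a deacetylase of polyamines, had 30.0%, 42.8%, 47.8% and 35.7% in the nucleus and 0.820%, 2.60%, 10.0% and 9.94% in the cytosol (log2 ratio 3.17, edgeR adjusted p = 0.0108), and Cpsf1, the largest subunit of the cleavage and polyadenylation factor, had 39.0%, 35.0%, 38.4% and 38.6% against 3.59%, 3.55%, 10.2% and 9.80% (log2 ratio 2.66, edgeR adjusted p = 0.00989). Fuz, Skiv2l, Taf7l, Ssbp4, Jak3 and Serhl had log2 ratios of 2.69 to 3.10. The nuclear and cytosolic libraries of these 10 genes did not overlap. Jak3 overlaps Insl3 and Skiv2l a microRNA gene. Introns held 2.05% of the nuclear T positions of Nudt17 and 52.6% of those of Serhl.

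The membrane fraction, which NP-40 released after the cytosol, resembled the cytosol in these genes. Its mean new share was 5.79% for Nudt17, 4.04% for Fcho1 and 7.50% for Cpsf1. Of the 3530 genes newer in the nucleus, 3485 (98.7%) had a membrane share nearer to the cytosolic than to the nuclear one, against 81.5% of all 9617 genes. The call selected genes with a wide gap between nucleus and cytosol, and this difference from all genes can arise from that choice. At 60 min, in libraries of the same replicates that the call did not use, all 3530 had a higher mean share in the nucleus, against 83.5% of all genes.

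**Figure D4:**
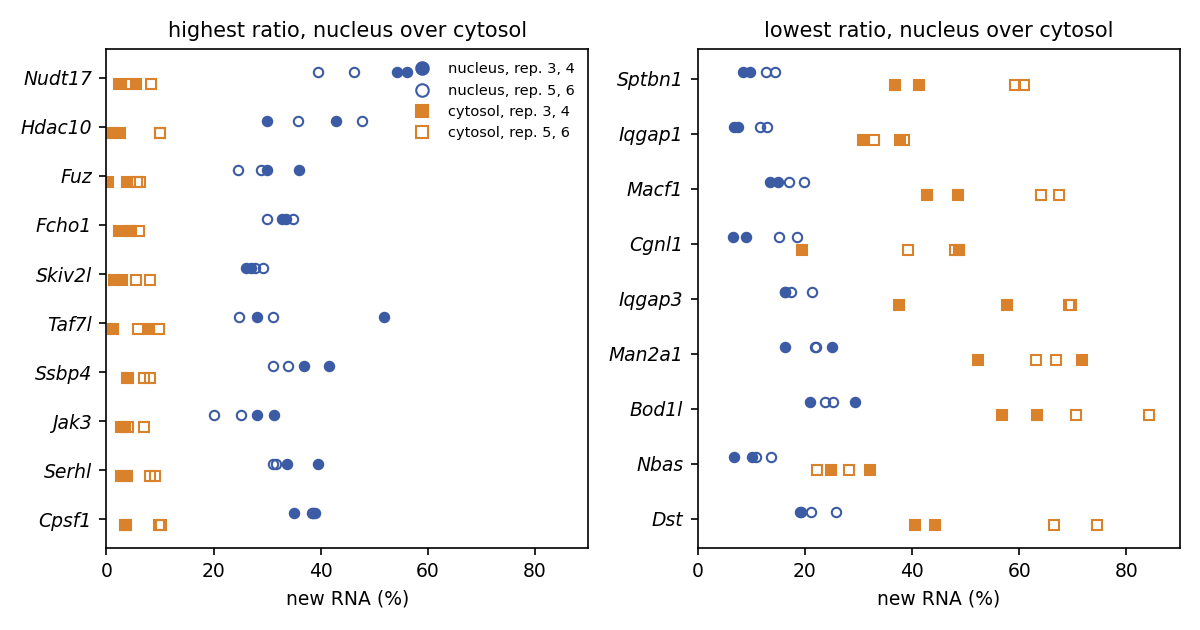
New RNA (%) in each nuclear and cytosolic library of the 10 genes with the largest and 9 of the 10 with the smallest ratio of nucleus to cytosol among the called genes with 1 direction in all 4 pairs. Points are single libraries, filled for replicates 3 and 4 and open for replicates 5 and 6, and in none of these genes do the fractions overlap.

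The 205 genes newer in the cytosol were mostly genes of long transcripts with a higher level in the nuclear pellet. Their median new share was 33.6% in the nucleus, 54.8% in the cytosol and 31.7% in the membrane fraction, and their median log2 level, nucleus over cytosol, was 2.69. Of the 205, 182 (88.8%) had a level over 2-fold higher in the nucleus, against 21.0% of all 9617 genes. The median transcript was 5.77 kb long and the gene spanned 57.6 kb, against 2.96 kb and 23.2 kb for all genes. Fewer molecules of a transcript and less of it recovered in a fraction cannot be told apart in such levels.

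Sptbn1, a spectrin of the membrane skeleton (chr11:30099395-30268175), had the smallest ratio. It was new to 9.67%, 8.40%, 14.3% and 12.7% in the nucleus and to 36.7%, 41.3%, 59.3% and 61.0% in the cytosol. All cytosolic values were above all nuclear ones, a 4.39-fold difference (log2 ratio -2.13 ± 0.12 (SE), edgeR adjusted p = 0.00104; -2.12 in replicates 3 and 4 and -2.16 in replicates 5 and 6), while its log2 level was 6.69 higher in the nucleus.

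Macf1, which links actin and microtubules, had 15.0%, 13.5%, 19.8% and 17.0% against 48.6%, 42.8%, 67.4% and 64.0% (log2 ratio -1.76, edgeR adjusted p = 0.0012). Dst, a relative of Macf1, the scaffolds Iqgap1 and Iqgap3 and the junction protein Cgnl1 had log2 ratios of -1.37, -1.91, -1.68 and -1.68. Man2a1, a Golgi mannosidase, Bod1l, which protects replication forks, and Nbas, a tether of the endoplasmic reticulum, were also among the 10 smallest, with -1.58, -1.47 and -1.44. The log2 level of these genes, Sptbn1 included, was 3.30 to 6.69 higher in the nucleus.

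Nuclear proteins were found here as well. Mki67, the proliferation marker Ki-67, had 26.0%, 24.5%, 29.1% and 26.6% in the nucleus and 54.2%, 53.6%, 52.2% and 63.6% in the cytosol, without overlap (log2 ratio -1.07 ± 0.12 (SE), edgeR adjusted p = 0.0085). Kmt2a had 63.0%, 63.4%, 76.0% and 73.5% against 98.4%, 89.1%, 100% and 101% (log2 ratio -0.50 ± 0.11 (SE), edgeR adjusted p = 0.0163), and Tet1 42.0%, 33.5%, 50.1% and 44.3% against 66.7%, 58.2%, 74.7% and 74.2% (log2 ratio -0.70 ± 0.10 (SE), edgeR adjusted p = 0.00989). The log2 level of these genes was higher in the nucleus by 3.97, 3.61 and 2.22.

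Among secreted, matrix and surface proteins, which are translated at the endoplasmic reticulum, 8 of 30 were newer in the cytosol and 1 in the nucleus, against 2.13% and 36.7% of all 9617 genes, with medians of 26.1% new in the nucleus, 37.2% in the cytosol and 16.7% in the membrane fraction. The median log2 ratio was -0.28 (-0.12 and -0.46 in the pairs) and -0.08 with 1 conversion rate per replicate, and the median log2 level was 3.15 higher in the nucleus. The exception was Slc3a2, the heavy chain of amino acid transporters, with 72.04%, 73.5%, 65.2% and 63.0% in the nucleus and 30.6%, 31.9%, 42.7% and 40.7% in the cytosol (log2 ratio 0.92 ± 0.15 (SE), edgeR adjusted p = 0.0106).

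The Pumilio site was in 46.5% of the 3′ UTRs of the 205 genes, against 26.3% of all genes, at 0.324 and 0.249 sites per kb. The AU-rich nonamer was in 11.4% against 7.45%, but at fewer sites per kb (0.0478 and 0.0645). The median 3′ UTR was 1.96 kb long in the 205 genes and 1.06 kb in all genes. Sites of 2 of these genes are shown for comparison with those above:
Macf1, Pumilio site, chr4:123350695-123350722, minus strand: tgaatatttaTGTAGATAaaatttgctt
Mki67, Pumilio site, chr7:135689955-135689982, minus strand: aaagatgaacTGTAAATActactgctac
Their membrane share was nearer to the cytosolic one in 74 of 205 genes (36.1%), against 81.5% of all genes. The call used the same nuclear and cytosolic libraries, and part of this difference from all genes can arise from that choice. At 60 min 204 of the 205 had a higher mean share in the cytosol, against 16.5% of all genes.

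**Figure D5:**
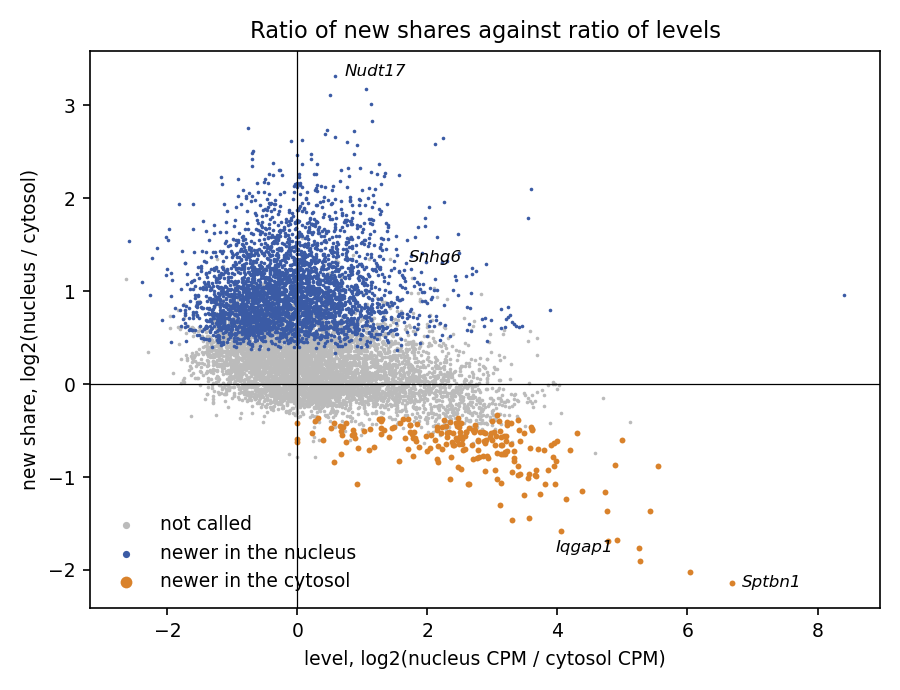
Log2 ratio of new shares (nucleus over cytosol, vertical axis) against the log2 ratio of levels in CPM (nucleus over cytosol, horizontal axis) for the 9617 genes. Genes newer in the cytosol lie mainly at levels over 2-fold higher in the nucleus (182 of 205), and genes newer in the nucleus around equal levels, with a median log2 level of -0.13.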

How the data were processed

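The authors alkylated RNA of each fraction with iodoacetamide, sequenced TruSeq stranded paired-end libraries and aligned the reads to mm10 (GRCm38). Per the labels the processing used STAR 2.7.6, HTSeq 0.11.1 and RSEM 1.3.3. The deposited tables hold, without normalization, the counts of T and of T2C for exons, genes and introns and the raw counts of reads on genes. For each library the authors also gave a conversion rate, a fraction fitted by them with a mixture of binomials. New shares recomputed from these values differed from the deposited ratio of T2C to T over conversion rate by at most 2.4e-13. No background was subtracted in the main values.

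T2C counts of 12325 genes with at least 400 T in all 8 libraries were fitted with edgeR 4.0.16 (R 4.3.3; quasi-likelihood test, log of T times conversion rate as offset, replicate as a block, Benjamini-Hochberg adjustment, adjusted p under 0.05). T positions of 1 read are not independent, and spread between libraries is given instead of counting intervals. Depth was 14384152 to 27632874 reads on genes. The fractions of a replicate come from the same culture, which is why they were paired. The correlations of their deviations from the group means were 0.08, 0.37, 0.21 and 0.21. Unmatched libraries of the same replicate pair correlated up to 0.26 (nucleus 5 with cytosol 6), so that the pairing rests on the design and not on these values. Tested on simulated counts of 12325 genes for nucleus against cytosol, 173 of 200 genes with a log2 change of 1 were recovered, with 5 false calls. The simulated counts held no shift of the medians between fractions and no difference between pairs, although the data show both. The false calls thus say nothing of the error rate in the data. Levels are CPM from the read counts with a pseudocount of 0.1.

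GENCODE vM21 gave positions, exons and 3′ UTRs for 9600 of the 9617 genes, while the authors' annotation was an earlier release. 3′ UTRs come from 1 transcript per gene. Named are, leaving out predicted genes and pseudogenes, the 8 genes with the highest and lowest mean share per fraction, the 10 called genes with the largest and smallest ratio and 1 sign in all pairs, the 2 highest and lowest nuclear shares and any call against the trend of each gene group, and the study's examples. mt- genes were left out of the rankings over all genes. Some of these genes are not reported here. The genes and groups were chosen with earlier results of these data known. Alternatives were limma 3.58.1, DESeq2 1.42.0, no block, 1 conversion rate per replicate, background subtracted with libraries of 15 min, equal library medians, only the most covered exon, other T limits and class limits, each pair alone and leaving out each replicate.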

Additional observations from a re-analysis of the deposited data

Results flagged for a closer look

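A single library lay far from the other libraries of its group for 3 named genes, out of 104 groups of 4 values looked at, where chance gives about 1 in 20. The new share of Cpsf1 in the nucleus was 35.02% in replicate 4 and 38.42% to 39.0% in the others. That of Gmds in the cytosol was 4.777% in replicate 5 and 2.148% to 2.331% in the others. That of Zfp708 in the cytosol was 161.5% in replicate 6 and 103.5% to 107.3% in the others, and Zfp708 overlaps another annotated gene.

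The difference between nucleus and cytosol was not the same in both pairs for 2556 genes by edgeR's interaction test. Among the genes with the largest ratios, the log2 ratio of replicates 5 and 6 minus that of replicates 3 and 4 was -2.29 for Hdac10 (edgeR adjusted p = 0.03995), -1.467 for Skiv2l (0.02594), -1.207 for Ssbp4 (0.01292), -1.223 for Jak3 (0.01607), -1.604 for Serhl (0.04274) and -1.417 for Cpsf1 (0.006282). In Iqgap1, newer in the cytosol, the difference was 0.7201 (0.03313). In each of these 7 genes the ratio was closer to equal shares in replicates 5 and 6. Pair and conversion rate cannot be told apart here.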

How the results depend on the processing

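Genes newer in the nucleus (3530) numbered 5815 with 1 conversion rate per replicate, 5358 in replicates 3 and 4 alone and 1907 with equal library medians. Genes newer in the cytosol (205) numbered 107 with 1 conversion rate, 878 in replicates 5 and 6 alone, 133 without the replicate block and 3301 with equal medians. Without the block the medians gave p = 0.05714 (exact permutation test, 4 against 4 libraries, smallest possible 0.02857) and 2672 genes were called as in the paired fit. Genes replaced in the nucleus (556) numbered 873 with a T limit of 400, 880 with 1 rate, 169 with stricter limits (0.9 and 0.2) and 284 with the limit in every library. Genes mostly old in the nucleus (2150) numbered 1308 and 1328 with the stricter limits and in every library. Genes replaced in the cytosol (725) numbered 514 with 1 rate, 466 in replicates 3 and 4, 389 with stricter limits and 366 in every library. Genes whose ratio differs between pairs (2556) numbered 1049 with 1 rate and 948 with the most covered exon.

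Leaving out 1 replicate at a time gave 0 to 3672 genes newer in the nucleus, 0 to 259 newer in the cytosol, 479 to 657 replaced and 1940 to 2296 mostly old in the nucleus, 618 to 832 and 3795 to 4538 in the cytosol, a log2 ratio of medians of 0.39 to 0.65, and 45 to 5815 genes that differ between pairs, this last set chosen after seeing the data. Genes newer in the cytosol were 101 without replicate 5 and 111 without replicate 6. The log2 ratio changed sign with equal medians for Pou5f1 (-0.036), Hspe1 (-0.095), Ahsa1 (-0.050), Cct6a (-0.094), Fdps (-0.027), Psmd5 (-0.037), Nf1 (-0.17) and Slf1 (-0.18), with 1 rate for Myc (0.052) and Tfrc (0.020), in replicates 3 and 4 for Tfrc (0.054), and with the most covered exon for Nubpl (-0.55). Over all alternatives, 797 log2 ratios of named genes kept their direction and their side of the threshold, 209 kept their direction but lost the call and 7 gained one. The causes were not tested.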
